A study of Rattus norvegicus with 16 samples.

Results

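miR-204 and miR-211 are a pair of closely related microRNAs, and every row of the deposited tables named for either of them, on any arm, was taken. The rule found 4 of 722 mature rat miRNAs: miR-204-5p, miR-204-3p, miR-211-5p and miR-211-3p. All 4 were among the 639 miRNAs that passed the filter on low counts. The study sequenced small RNA from the dorsal raphe, a serotonergic nucleus of the brainstem, and from the amygdala of rats 60 days old. The rats were of the Low Responder or the High Responder strain, names used for rats that differ in how much they move in an unfamiliar environment. The 4 groups were low responder dorsal raphe, high responder dorsal raphe, low responder amygdala and high responder amygdala, with 4 libraries each. The labels name no treatment, and they leave unsaid whether each library is from another rat; the p-values therefore rest on variation among these libraries, which may be technical.

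Each miRNA hairpin can give a mature strand from its 5p and from its 3p arm, and the strand loaded into an Argonaute protein pairs with target messages mainly through its seed, bases 2 to 8. In brain tissue the choroid plexus, the ciliated epithelium that makes cerebrospinal fluid inside the ventricles, is known as a rich source of miR-204, which also occurs in other epithelia such as the retinal pigment epithelium. miR-204 is encoded within the gene Trpm3 and miR-211 within Trpm1, related TRP channel genes, and RefSeq's annotation of the rat (GRCr8) places both miRNA genes within those spans. Neither the choroid plexus nor any other cell type was sampled separately, so the label of choroid plexus was set against other miRNAs of that tissue. Messenger RNA markers of choroid plexus, such as transthyretin, are not measured in these tables.

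The mature sequences from RefSeq (GRCr8) are shown 5′ to 3′ with the seed in capitals, because they show which arms share a seed.
rno-miR-204-5p: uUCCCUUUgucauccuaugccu
rno-miR-211-5p: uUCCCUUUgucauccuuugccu
rno-miR-204-3p: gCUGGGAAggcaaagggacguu
rno-miR-211-3p: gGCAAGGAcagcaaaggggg

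The 5p arms were identical at 21 of 22 bases and differed by A17U, with miR-204-5p as the first base and positions counted from 1 at the 5′ end. Their seed, UCCCUUU, occurred in no other of the 644 miRNAs of the tables that had a RefSeq sequence. The 3p arms had different seeds from each other and from the 5p arms, and neither seed occurred in another of those 644. The sources used here do not give how reads matching both 5p arms were assigned, so misassigned reads may be part of the values of either, and of miR-211-5p, the less abundant, in particular. The hairpins are shown with the mature arms in capitals, because both arms of each were measured.
Mir204 hairpin: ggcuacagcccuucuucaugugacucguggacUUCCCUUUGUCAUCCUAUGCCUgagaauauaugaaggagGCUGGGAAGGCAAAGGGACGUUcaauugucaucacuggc
Mir211 hairpin: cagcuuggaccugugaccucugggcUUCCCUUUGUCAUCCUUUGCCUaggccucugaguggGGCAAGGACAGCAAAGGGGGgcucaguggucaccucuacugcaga

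Library totals ran from 1741167 to 8134915 counts. Levels are CPM (a count divided by its library's total and put on a common scale) adjusted by TMM, a trimmed-mean factor for each library. Low responder dorsal raphe replicate 4 stood apart with a TMM factor of 0.596, against 0.871 to 1.27 in the others, and high responder amygdala replicate 1 had the lowest total. Low responder amygdala replicate 4, the deepest library, held the lowest level of 3 of the 4 rows among the 16 libraries or, for miR-211-3p, the lowest of its own group. In the edgeR comparisons of the 4 rows and in the ratios, results that rest on these libraries are given with and without them. Calls of the cell-type lists and correlations of other miRNAs with miR-204-5p are given with them only. Across the 16 libraries, the deviation of log2 CPM of miR-204-5p from its group mean had a Pearson r of -0.05 with that of the log2 total (Spearman rho 0.121; permutation p 0.846 and 0.685, adjusted p 0.998 and 0.929 over 3 relations; r -0.121 without the 2 libraries of most extreme total).

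miR-204-5p was by far the most abundant of the 4 and was highest in the amygdala of high responders. Replicates 1 to 4 of dorsal raphe held 2430, 1965, 2205 and 3616 CPM in low responders and 1451, 1706, 2752 and 1712 CPM in high responders. Replicates 1 to 4 of amygdala held 2312, 8886, 5951 and 942 CPM in low responders and 7831, 13998, 13428 and 16329 CPM in high responders. All 4 high responder amygdala libraries lay above all 8 dorsal raphe libraries, whereas the low responder amygdala libraries ranged from below the dorsal raphe to within the range of the high responder amygdala. Of all miRNAs, 11.1% lay above the high responder dorsal raphe libraries in this way, and the share against all 8 was not counted. Group means were 2554 ± 733 and 1905 ± 577 CPM in dorsal raphe and 4523 ± 3596 and 12897 ± 3603 CPM in amygdala of low and high responders (SD, n = 4 each). The highest library of low responder amygdala held 9.43 times the level of the lowest, against 1.84 to 2.09 times in the other 3 groups. Its share of a library ran from 0.0877% in low responder amygdala replicate 4, where it ranked 101 by count, to 1.48% in high responder amygdala replicate 2, where it ranked 18.

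**Figure D1:**
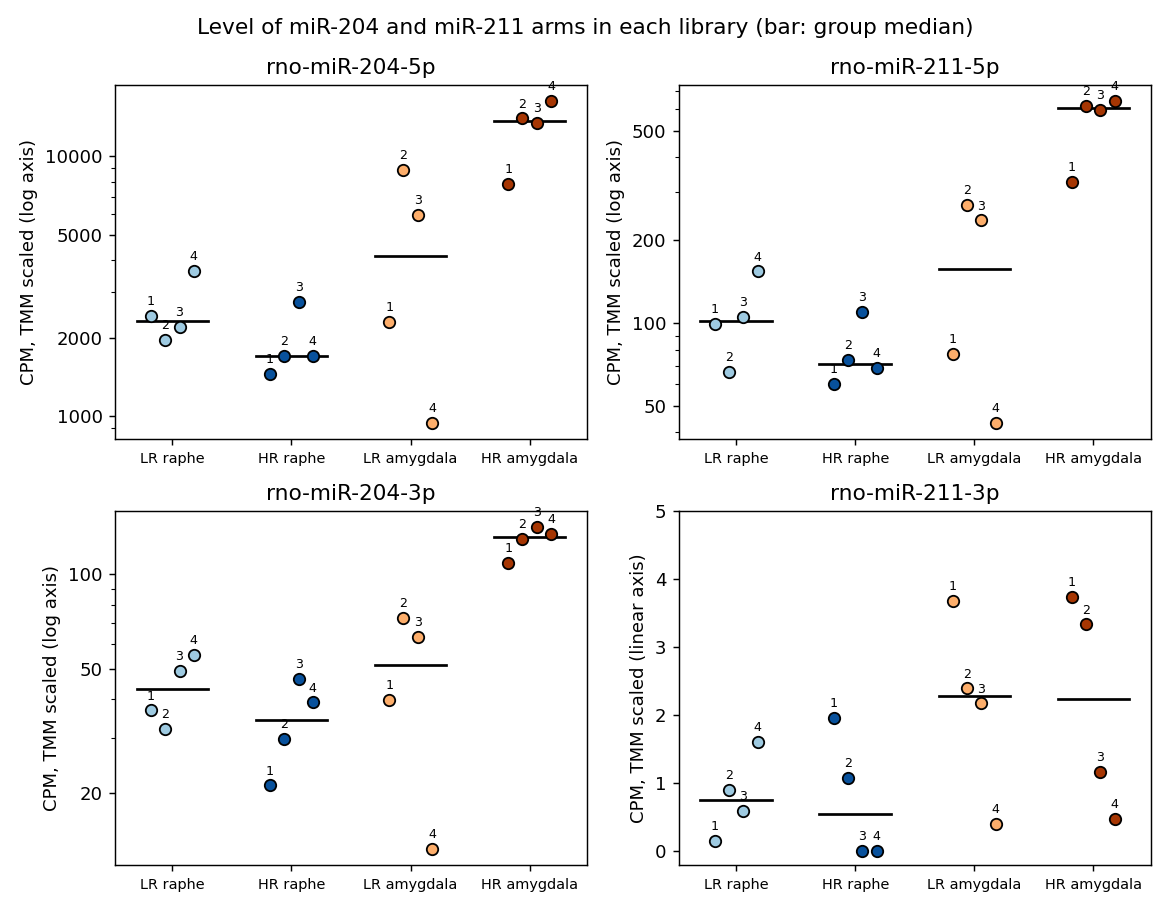
TMM-scaled CPM of the 4 mature miRNAs in each of the 16 libraries, by group (LR, low responders; HR, high responders); numbers are replicates, bars are group medians, and the axis is logarithmic except for miR-211-3p. The high responder amygdala libraries of miR-204-5p (7831 to 16329 CPM) lie above all dorsal raphe libraries, and low responder amygdala replicate 4 lies lowest at 942 CPM.

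miR-211-5p, the seed partner, was far less abundant and had the same pattern over libraries. Its dorsal raphe levels were 99.3, 66.2, 105 and 154 CPM in low responders and 60.0, 73.6, 110 and 68.8 CPM in high responders. In amygdala it was at 77.2, 268, 236 and 43.3 CPM in low responders and at 325, 616, 597 and 641 CPM in high responders. Here the high responder amygdala libraries lay above all 12 others. The share of all miRNAs separated in this way was not counted, and 5.01% lay above the low responder amygdala libraries alone. Group means were 106 ± 36.1 and 78.1 ± 22.1 CPM in dorsal raphe and 156 ± 112 and 544 ± 148 CPM in amygdala of low and high responders (SD, n = 4 each).

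miR-204-3p, the other strand of the miR-204 hairpin, was less abundant still. Its dorsal raphe levels were 36.8, 32.1, 49.3 and 55.3 CPM in low responders and 21.2, 29.8, 46.3 and 39.0 CPM in high responders. In amygdala it was at 39.7, 72.6, 63.3 and 13.3 CPM in low responders and at 109, 130, 142 and 135 CPM in high responders. The high responder amygdala libraries again lay above all 12 others, a separation whose share over all miRNAs was not counted. Those of low responder amygdala spanned the whole dorsal raphe range. Group means were 43.4 ± 10.7 and 34.1 ± 10.9 CPM in dorsal raphe and 47.2 ± 26.5 and 129 ± 14.1 CPM in amygdala of low and high responders (SD, n = 4 each).

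miR-211-3p was near the limit of detection. It had 1, 4, 3 and 2 counts in low responder dorsal raphe, 6, 6, 0 and 0 in high responder dorsal raphe, 16, 13, 10 and 3 in low responder amygdala and 7, 9, 7 and 2 in high responder amygdala. A count of 0 had an upper 95% Poisson limit of 0.653 and 0.993 CPM in high responder dorsal raphe replicates 3 and 4. These limits cover counting error only and use the library total without the TMM factor. The highest level was 3.73 CPM, and at this depth the order of its groups could not be resolved.

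By group mean the order was the same for the other 3 miRNAs: high responder amygdala, low responder amygdala, low responder dorsal raphe, high responder dorsal raphe. The top neighbours in that order were separate for miR-204-3p and miR-211-5p and overlapped for miR-204-5p, where low responder amygdala replicate 2 at 8886 CPM exceeded high responder amygdala replicate 1 at 7831 CPM. All lower neighbours overlapped, and on the log2 scale low responder amygdala lay 0.10 below low responder dorsal raphe for miR-204-3p (difference -0.10). The 4 rows together held between 0.093% and 1.56% of a library's counts, and miR-204-5p made up 93.4% to 96.3% of that sum in every library.

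The region comparison asked which miRNAs differ between amygdala and dorsal raphe, and miR-204-5p, miR-211-5p and miR-204-3p rose in amygdala averaged over the lines. miR-204-5p was 3.46-fold higher (log2 fold change 1.79 ± 0.35 SE, edgeR adjusted p = 0.00101). miR-211-5p was 3.20-fold higher (1.68 ± 0.34, edgeR adjusted p = 0.00113), and miR-204-3p was 2.03-fold higher (1.02 ± 0.28, edgeR adjusted p = 0.0128). miR-211-3p had a log2 fold change of 1.57 ± 0.70 that missed the threshold (edgeR adjusted p = 0.109). Thus 3 of the 4 rows were called higher, beside 9.39% of all 639 miRNAs tested, whose median log2 fold change was -0.08. For these 3 the call held without any 1 library, with log2 fold changes of 1.63 to 2.06, 1.60 to 1.94 and 0.94 to 1.28, and without both libraries set apart (2.17, 2.07 and 1.31). miR-211-3p passed in edgeR without high responder dorsal raphe replicate 1 (1.98, adjusted p = 0.0467) and without high responder amygdala replicate 4 (1.86, adjusted p = 0.0446). In bulk tissue, fewer cells of a type and less RNA per cell cannot be told apart.

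Within high responders the 2 regions were far apart. miR-204-5p was 6.77-fold higher in amygdala (log2 fold change 2.76 ± 0.51 SE, edgeR adjusted p = 0.00133), miR-211-5p 6.96-fold (2.80 ± 0.49, adjusted p = 0.000846) and miR-204-3p 3.77-fold (1.92 ± 0.41, adjusted p = 0.00356). These calls compare with 6.57% of all miRNAs called higher in that comparison. Each of the 3 had every amygdala library above every dorsal raphe library, as did 11.1% of all miRNAs tested. miR-211-3p was at 1.48 ± 0.99 and was not called (edgeR adjusted p = 0.32).

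Within low responders none of the 4 passed, and 3.6% of all miRNAs were called higher. miR-211-3p, with few counts, was at a log2 fold change of 1.66 ± 0.99 SE (edgeR adjusted p = 0.286). The log2 fold change was 0.82 ± 0.48 for miR-204-5p (edgeR adjusted p = 0.273), 0.56 ± 0.46 for miR-211-5p (edgeR adjusted p = 0.44) and 0.13 ± 0.40 for miR-204-3p (edgeR adjusted p = 0.864). Low responder amygdala replicate 4 decided the first of these: without it miR-204-5p reached 1.29 ± 0.38 (edgeR adjusted p = 0.0349), when 4.22% of miRNAs were called higher, while miR-211-5p at 1.01 ± 0.39 (edgeR adjusted p = 0.11) and miR-204-3p at 0.57 ± 0.30 (edgeR adjusted p = 0.219) still missed the threshold. Its 942 CPM of miR-204-5p lay below all 8 dorsal raphe libraries.

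Some miRNAs of lists for the choroid plexus and for neurons were also higher in amygdala, beside the 9.39% of all miRNAs called higher. Of 7 miRNAs encoded in the gene of the serotonin 2C receptor, which choroid plexus expresses strongly but neurons do as well, 3 were higher in amygdala averaged over the lines and 1 was lower, with a median log2 fold change of 1.08. The higher ones were miR-1298 (4.00), miR-1912-3p (3.63) and miR-448-3p (2.92), and the lower one was miR-764-3p (-0.93). Their summed level was 847 to 3390 CPM over the dorsal raphe libraries, 1170 to 40100 CPM in low responder amygdala and 24100 to 35700 CPM in high responder amygdala. Of 8 miRNAs of the miR-34b, miR-34c and miR-449 loci, which mark multiciliated cells such as those of choroid plexus and ependyma, 2 were higher and none lower (median 1.15), with sums of 1760 to 5320 CPM in dorsal raphe, 343 to 11600 CPM in low responder amygdala and 3990 to 11900 CPM in high responder amygdala.

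Of 8 tested arms of the epithelial miR-200 family, miR-200a-3p, miR-200b-3p and miR-429 were higher (median 1.23), with sums of 15.1 to 35.2 CPM in dorsal raphe and 30.8 to 71.3 CPM in amygdala. A list of 18 neuronal miRNAs had 9 higher and none lower (median 0.80), with sums of 44900 to 71600 CPM in dorsal raphe and 94400 to 160000 CPM in amygdala. Called lower were 14.9% of all miRNAs. Among the lists these were 3 of 5 oligodendrocyte miRNAs (median -0.87), 6 of 10 muscle miRNAs with 1 higher (median -1.37), 3 of 5 sensory organ and pineal miRNAs (median -1.76) and 1 of 8 microglial and leukocyte miRNAs (median -0.20), the last a share below that of all miRNAs. None of 7 vascular and 4 erythrocyte miRNAs was called. No miRNA of any of these lists was at 0 in all 4 libraries of a group. The part of these tissues in the region difference of miR-204 and miR-211 was not tested.

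**Figure D2:**
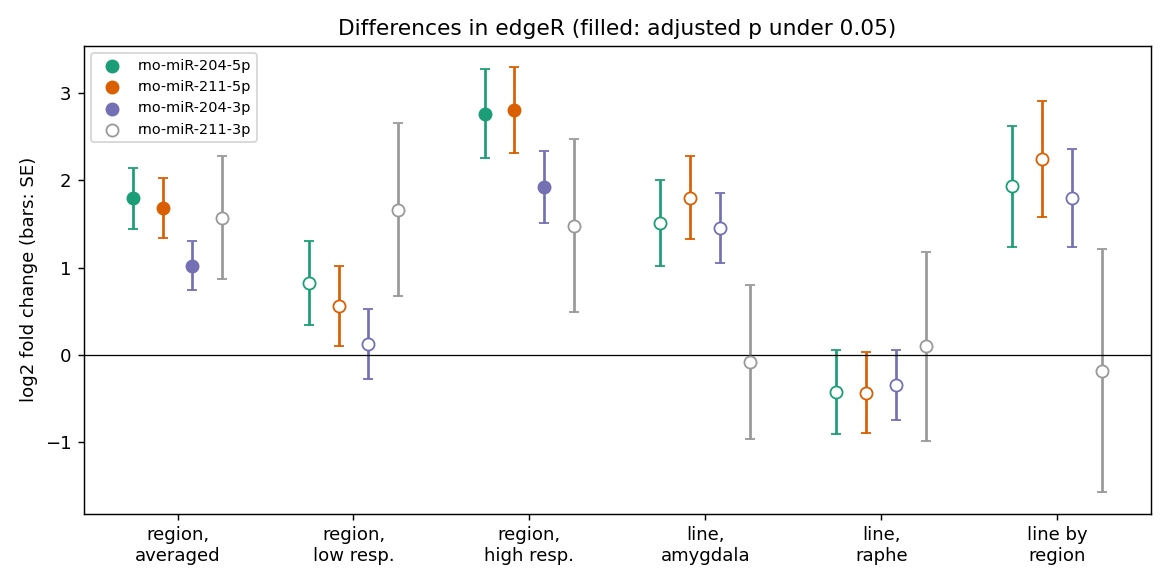
Log2 fold change (SE as bars) of each miRNA in the 6 comparisons of the edgeR model; filled points passed the adjusted threshold and open points did not. The region difference is filled for miR-204-5p, miR-211-5p and miR-204-3p averaged over the lines (1.79, 1.68 and 1.02) and in high responders (2.76, 2.80 and 1.92), and no line difference or interaction is filled.

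The line comparison asked what separates high from low responders. In amygdala, miR-204-5p was at a log2 fold change of 1.51 ± 0.49 SE in high over low responders (edgeR adjusted p = 0.288), miR-211-5p at 1.80 ± 0.47 (edgeR adjusted p = 0.183) and miR-204-3p at 1.45 ± 0.40 (edgeR adjusted p = 0.211). None of these passed the adjusted threshold. In the edgeR test 0% of the 639 miRNAs did, although 65 had an unadjusted p under 0.05. miR-211-5p ranked 4th, miR-204-3p 6th and miR-204-5p 14th by p, and their unadjusted p-values in edgeR were 0.00134, 0.00198 and 0.00668. miR-211-3p was at -0.08 ± 0.88 (edgeR adjusted p = 0.971). The libraries of the 2 lines did not overlap for miR-211-5p and miR-204-3p, with high responders above, as for 5.01% of all miRNAs tested.

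The line difference in amygdala passed in some other fits, so the call depended on the method. In DESeq2 all 3 passed: miR-204-5p at 1.57 (adjusted p = 0.0354), miR-204-3p at 1.5 (adjusted p = 0.00714) and miR-211-5p at 1.86 (adjusted p = 0.00332), where 3.35% of the 418 miRNAs given an adjusted p were called higher. With only miRNAs of at least 10 CPM on average in edgeR, miR-211-5p passed (1.93, adjusted p = 0.0446), and 1.73% of 405 miRNAs were called higher. Without the libraries set apart it passed as well in edgeR (1.98, adjusted p = 0.0406), when 1.08% of 648 were called higher. In limma-voom none passed (adjusted p 0.0632 to 0.102). Without low responder amygdala replicate 4, the library with the lowest levels, the log2 fold changes of miR-204-5p, miR-211-5p and miR-204-3p in edgeR were 1.23, 1.55 and 1.19 (adjusted p 0.292, 0.224 and 0.224).

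In dorsal raphe the line difference had the opposite sign and was within its error. The log2 fold change of high over low responders was -0.42 ± 0.48 SE for miR-204-5p, -0.43 ± 0.46 for miR-211-5p and -0.34 ± 0.40 for miR-204-3p (edgeR adjusted p = 0.939 each), and the libraries of the 2 lines overlapped for each. None of all miRNAs, 0%, passed in edgeR, with 70 at an unadjusted p under 0.05; DESeq2 called none either.

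The interaction asked whether the region difference itself differs between the lines. It was 1.93 ± 0.69 SE on the log2 scale for miR-204-5p (edgeR adjusted p = 0.24), 2.24 ± 0.66 for miR-211-5p (edgeR adjusted p = 0.195) and 1.79 ± 0.56 for miR-204-3p (edgeR adjusted p = 0.202), larger in high responders. No miRNA, 0%, passed in edgeR, and 81 had an unadjusted p under 0.05, so the region difference seen in high responders was not shown by this test to differ from that in low responders. In DESeq2, miR-211-5p (2.18, adjusted p = 0.0277) and miR-204-3p (1.73, adjusted p = 0.0486) passed and miR-204-5p did not (1.88, adjusted p = 0.0739), where 4.31% of 418 miRNAs were called higher. The interaction of miR-211-3p was -0.18 ± 1.39 SE (edgeR adjusted p = 0.991).

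The edgeR line difference in amygdala was called for 0% of all miRNAs, and so for none of the 23 tested in the choroid lists. Of the 7 of these that varied most like miR-204-5p over libraries, miR-34b-5p was at a log2 fold change of 1.15 ± 0.71 SE, miR-34b-3p at 0.79, miR-34c-3p at 0.74, miR-34c-5p at 0.64, miR-1298 at 0.58, miR-764-5p at 0.56 and miR-448-3p at 0.46. The medians were 0.33 over the serotonin 2C receptor list (5 of 7 above 0), 0.71 over the multiciliated list (8 of 8 above 0) and 0.42 over the miR-200 list (7 of 8 above 0), beside 0.07 over all miRNAs. The summed neuronal list was also higher in each high responder amygdala library (141000 to 160000 CPM) than in each low responder one (94400 to 135000 CPM), with a median log2 fold change of -0.10 over its members and none called. The part of these cell types in the line difference was not tested.

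The ratio of miR-211-5p to miR-204-5p, which no scaling between libraries affects, varied far less than the level of miR-204-5p. miR-211-5p counts were 4.12 ± 0.577% of miR-204-5p counts in low responder dorsal raphe, 4.12 ± 0.143% in high responder dorsal raphe, 3.73 ± 0.701% in low responder amygdala and 4.23 ± 0.241% in high responder amygdala (SD, n = 4 each), and ran from 3.01% to 4.77% over single libraries. The groups overlapped. The log2 difference between amygdala and dorsal raphe was -0.06 (exact two-sided permutation test, p = 0.541, adjusted p = 0.812 over 6 ratio tests), and between the lines it was 0.20 in amygdala (exact permutation p = 0.257, adjusted 0.771) and 0.01 in dorsal raphe (exact permutation p = 0.914). Over the same libraries the level of miR-204-5p varied between 942 and 16329 CPM. To the extent that reads of miR-204-5p were counted as the near-identical miR-211-5p, the small spread of this ratio could not be told apart from an effect of such reads.

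The ratio of the 2 arms of the miR-204 hairpin differed between regions. miR-204-3p counts were 1.76 ± 0.321% of miR-204-5p counts in dorsal raphe (range 1.46% to 2.28%) and 1.15 ± 0.323% in amygdala (range 0.817% to 1.72%; SD, n = 8 each). The log2 difference was -0.64 (exact two-sided permutation test, p = 0.00218, adjusted p = 0.0131 over 6 tests), and it ran from -0.73 to -0.58 without any 1 library. The call was lost with a replicate block (-0.64, exact permutation p = 0.0312, adjusted p = 0.188). The 8 against 8 test takes the libraries as independent, whereas same-numbered amygdala libraries of the lines deviated together over all miRNAs tested. In high responders the ratios of amygdala (1.39%, 0.927%, 1.06% and 0.827%) lay below those of dorsal raphe (1.46%, 1.75%, 1.68% and 2.28%) in every library. In low responders they overlapped, at 1.72%, 0.817%, 1.06% and 1.42% in amygdala and 1.52%, 1.63%, 2.24% and 1.53% in dorsal raphe. Between the lines the log2 difference was -0.23 in amygdala (exact permutation p = 0.429, adjusted 0.812) and 0.05 in dorsal raphe (exact permutation p = 0.686, adjusted 0.823).

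The libraries with the lowest arm ratio were those with the most miR-204-5p. The 6 libraries of highest miR-204-5p, all of amygdala, had ratios of 0.817% to 1.39%, and the other 10 had 1.42% to 2.28%, including the 2 low responder amygdala libraries with little miR-204-5p. Ratio and level share the miR-204-5p count, so this is a description. After these values were seen, the same arm ratio was computed for all 117 hairpins with both arms at 10 CPM or more. Of these, 3.42% had a lower share of the less abundant arm in amygdala at an adjusted exact permutation p under 0.05, miR-204 among them (adjusted p = 0.0338 with 0.5 added to each count), and 6 had a higher share, with a median log2 difference of -0.06. By size of the fall miR-204 ranked 16th. The log2 differences of miR-34b and miR-34c were near its -0.64, at -0.72 and -0.62, and were not called (adjusted exact permutation p = 0.178 and 0.0712).

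**Figure D3:**
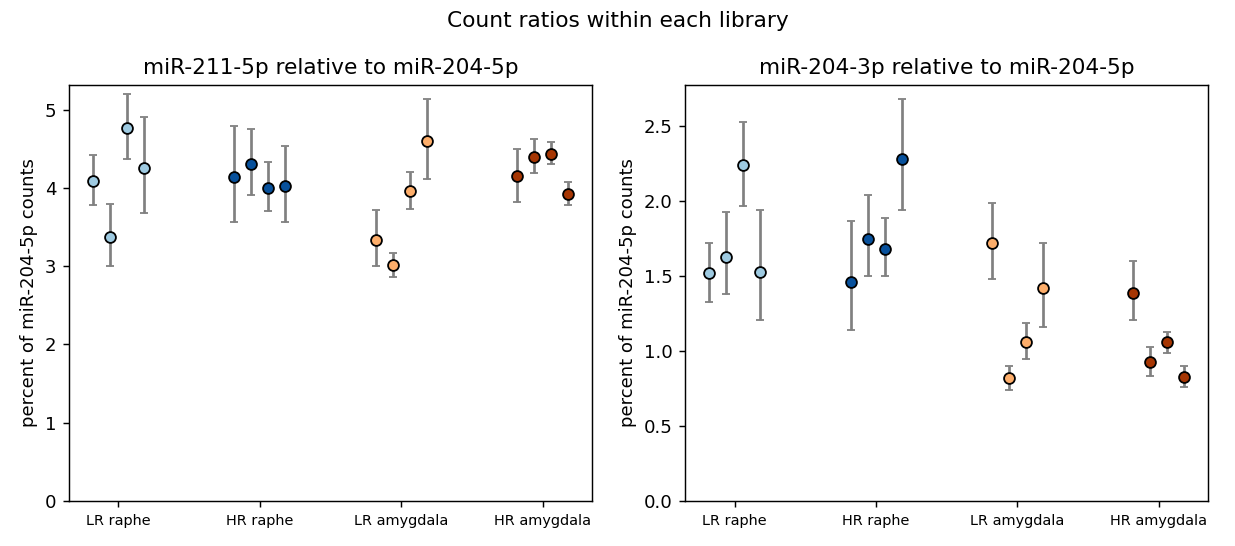
Counts of miR-211-5p (left) and of miR-204-3p (right) as a percent of miR-204-5p counts in each library, in replicate order within a group, with 95% Wilson intervals, which cover counting error only; both axes start at 0. The left ratio stays between 3.01% and 4.77% in all groups, and the right one is lower in high responder amygdala (0.827% to 1.39%) than in dorsal raphe (1.46% to 2.28%). On the right, the intervals of high responder replicate 1 overlap between the regions.

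Which miRNAs varied with miR-204-5p from library to library was measured with group differences removed, as the correlation of deviations of log2 CPM from the group means over the 16 libraries, among 407 miRNAs. The closest was miR-211-5p (r 0.977, rho 0.974, permutation p 3e-05 and 0.00011, adjusted 0.0122 and 0.0448). miR-204-3p had an r of 0.916 (rho 0.847, permutation p 7e-05 and 0.00064, adjusted 0.0142 and 0.0651). These 2 were the only ones of the 407 with an adjusted permutation p of r under 0.05. miR-211-3p, with few counts, had an r of 0.113 (rho -0.2, permutation p 0.759 and 0.534). Without high responder amygdala replicates 2 and 4, r was 0.977 for miR-211-5p and 0.928 for miR-204-3p. These libraries were chosen by their log2 CPM of miR-204-5p against the median of all 16, not by their deviation from the group mean. Low responder amygdala replicate 4, at 9.88 against a group mean of 11.68, stayed in, and r without it is not given. How far r depends on that library was not tested.

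The 6 other miRNAs most like miR-204-5p all belonged to the choroid lists, and none passed the adjusted threshold. They were miR-448-3p (r 0.918, rho 0.735), miR-34c-5p (r 0.892, rho 0.744), miR-34c-3p (r 0.846, rho 0.668), miR-34b-3p (r 0.846, rho 0.735), miR-764-5p (r 0.845, rho 0.782) and miR-34b-5p (r 0.842, rho 0.668), with adjusted permutation p of r from 0.12 to 0.218 and a median r of 0.0869 over all 407. miR-1298 followed at rank 7 (r 0.834, rho 0.547, adjusted permutation p of r 0.315). The 6 come from the serotonin 2C receptor gene and the miR-34b and miR-34c loci, so they are not independent matches. No arm of the miR-200 list reached an average of 10 CPM, so none was among the 407 compared. The choroid lists held 7, 8 and 8 of the 639 miRNAs tested and were chosen with earlier results of these data known. The ranking took only the 404 miRNAs outside the miR-204 and miR-211 rows with at least 10 CPM on average. Besides the 6 and miR-1298, those from the choroid lists were miR-449a-5p, miR-1912-3p, miR-448-5p and miR-764-3p (r 0.766, 0.758, 0.73 and 0.653). Sequences matched for 5 of the 6, all but miR-764-5p; these 5 share no seed with miR-204 or miR-211, and the miR-34b and miR-34c arms share seeds with each other.
rno-miR-448-3p: uUGCAUAUguaggauguccca
rno-miR-34c-5p: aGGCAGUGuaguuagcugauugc
rno-miR-34b-5p: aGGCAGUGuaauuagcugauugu
rno-miR-34c-3p: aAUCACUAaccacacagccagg
rno-miR-34b-3p: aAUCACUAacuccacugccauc

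The spread was widest in low responder amygdala. miR-448-3p was at 311, 1262, 629 and 42.3 CPM in replicates 1 to 4, miR-34c-5p at 3008, 9986, 4522 and 294 CPM, and miR-1298 at 8729, 38568, 23600 and 1092 CPM. Replicate 4 was lowest and replicate 2 highest for each, as for miR-204-5p. In high responder amygdala, miR-448-3p was at 365, 951, 867 and 899 CPM and miR-34c-5p at 3549, 8055, 7462 and 8737 CPM, with replicate 1 lowest as for miR-204-5p. miR-1298 was at 25007, 34621, 25072 and 23001 CPM there, with replicate 4 lowest, the library in which miR-204-5p was highest.

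**Figure D4:**
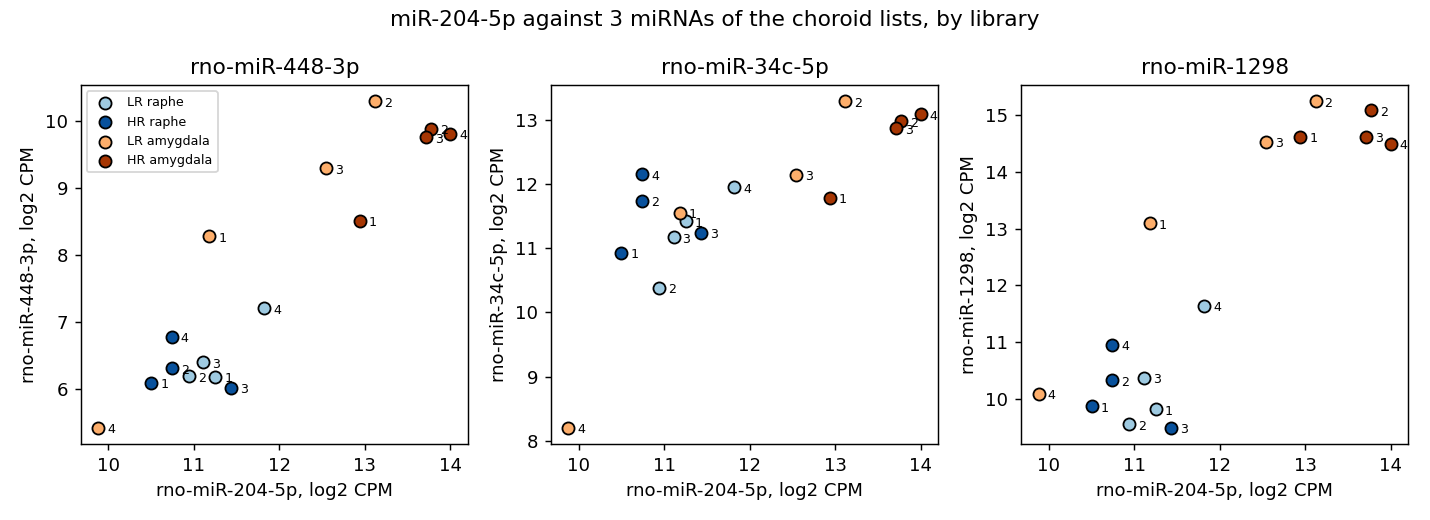
Log2 CPM of miR-448-3p, miR-34c-5p and miR-1298 against that of miR-204-5p in each library; colours are groups and numbers are replicates. Low responder amygdala replicate 4 lies lowest for miR-204-5p in all panels, and low responder amygdala replicate 2 (8886 CPM of miR-204-5p) lies highest of all libraries for each of the other miRNAs.

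The line difference in amygdala, not called for levels in the main edgeR fit, was also not called relative to some of those miRNAs. These were taken from the miRNAs most like miR-204-5p in the same libraries, so the ratios are a description. After the values were seen, log2 ratios of miR-204-5p and miR-211-5p to each of miR-448-3p, miR-34c-5p, miR-1298 and miR-34b-5p were compared between high and low responder amygdala. The difference of high minus low responders for miR-204-5p was 0.76, 0.54, 0.46 and 0.19 in that order (exact permutation p 0.143, 0.314, 0.4 and 0.714, adjusted over 8 tests 0.503, 0.503, 0.533 and 0.714). For miR-211-5p it was 0.95, 0.73, 0.66 and 0.38 (exact permutation p 0.143, 0.314, 0.314 and 0.6, adjusted 0.503, 0.503, 0.503 and 0.686). Low responder amygdala replicate 4 decided most of the overlap. Without it the differences were 0.87 to 1.43 and the lines did not overlap for 7 of the 8 ratios, with an exact permutation p of 0.0571 each (adjusted 0.0653), the smallest that 4 against 3 libraries allow. The exception was miR-204-5p to miR-34b-5p (0.87, exact permutation p 0.114, adjusted 0.114).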

How the data were processed

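Small RNA was measured in 16 libraries, grouped by region and line from the labels. The values are read counts per mature miRNA as deposited by the authors, 722 per library. Adapter removal with cutadapt 1.3.1, alignment with Bowtie2 and counting tools of bedtools 2.14.2 are named in the submitters' processing notes; the sources used here name no genome build or annotation. The members and the lists of cell-type miRNAs were chosen with earlier results of these data known.

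miRNAs of low count were left out (edgeR filterByExpr, minimum count 10, total 15), which kept 639 and dropped 83. One edgeR 4.0.16 quasi-likelihood model in R 4.3.3, with 4 group means over all 16 libraries and TMM factors, gave each difference. Benjamini-Hochberg adjustment ran over all 639, with a threshold of 0.05. log2 CPM used a prior count of 2. No library was a copy of another (chi-square per degree of freedom at least 50.5 in all 120 pairs). DESeq2 1.42.0, limma 3.58.1, other scalings and filters and left-out libraries were tried. Ratios were tested with exact two-sided permutations and likeness with 100000 permutations within groups (SciPy 1.17.1, Python 3.11.15); the 6 non-members of highest r are named. The fit and the likeness measure were tested on simulated data.

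Same-numbered low and high responder amygdala libraries deviated together from their group means (r 0.69, 0.29, 0.21 and 0.51), so their numbers were taken to pair them, from the data rather than the labels. These r are over all miRNAs tested. miR-204-5p lay on the same side of its group mean in both lines in replicates 1, 2 and 3, but not in replicate 4 (942 CPM in low and 16329 CPM in high responders). The other pairs of groups had at least 1 value not above 0.1, such as 0.67, -0.27, 0.35 and 0.53 between the regions of high responders. Between high responder dorsal raphe and low responder amygdala the values were 0.56, 0.01, 0.11 and 0.26. Libraries of different number were not compared, so the pairing is an assumption.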

Additional observations from a re-analysis of the deposited data

Results flagged for a closer look

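High responder amygdala replicate 1 had a miR-211-5p level of 8.34 log2 CPM, against 9.22, 9.27 and 9.32 in the other 3 libraries of its group. The gap to the nearest of them was 0.895 of the group's range, above Dixon's 95% critical value for 4 values. It was the only such case among 24 sets of 4 libraries tested, and chance gives about 1 in 20. This library also had the lowest total, 1741167 counts, and its miR-204-5p (7831 CPM) and miR-204-3p (109 CPM) were the lowest of its group. Without it the line difference of miR-211-5p in amygdala was 1.98 on the log2 scale (edgeR adjusted p = 0.101).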

How the results depend on the processing

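The region differences of both 5p arms and of miR-204-3p, averaged over the lines and in high responders, kept their direction and side of the threshold in every alternative tried. In DESeq2 the line difference in amygdala was called for miR-204-5p (1.57), miR-204-3p (1.5) and miR-211-5p (1.86), and the interaction for miR-211-5p (2.18) and for miR-204-3p (1.73). In edgeR the line difference of miR-211-5p in amygdala was called at 10 CPM or more (1.93) and without the libraries set apart (1.98). The region difference of miR-204-5p in low responders ran from 0.43 to 1.29 without 1 library, called only without low responder amygdala replicate 4, and that of miR-204-3p turned to -0.09 in limma-voom. miR-211-3p changed sign in several comparisons: to 0.76 (interaction) and -0.81 (dorsal raphe line difference) in limma-voom and to 0.04 (amygdala line difference) in DESeq2. Without 1 library it ran from -0.69 to 0.62 (interaction), -0.44 to 0.33 (amygdala), -0.73 to 0.66 (dorsal raphe) and 1.35 to 1.98 (region average). The line differences of the ratios in dorsal raphe lay near 0. That of the 5p arms was -0.0011 percentage points on the linear scale, and on the log2 scale it ran from -0.08 to 0.08 without 1 library. That of the miR-204 arms, on the log2 scale, was -0.00041 without the libraries set apart and -0.07 to 0.18 without 1 library. The cause of these changes was not tested.

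With a replicate block, miR-211-3p was called for region (1.71, edgeR adjusted p = 0.0444) and the arm ratio was not (-0.64). The replicate numbers were not taken to pair the regions. In amygdala they were taken to pair the lines, from the data alone. There the replicate block gave 1.84, 2.07 and 1.65 for miR-204-5p, miR-211-5p, then miR-204-3p (edgeR adjusted p = 0.168, 0.116 and 0.131). That fit of those 8 libraries was chosen after seeing the data, and the block changed no other call.

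Of all miRNAs, 155 were called for region (60 higher, 95 lower), 84 in high responders (42 higher, 42 lower) and 90 in low responders (23 higher, 67 lower), with ranges of 114 to 218, 61 to 149 and 21 to 129 over the alternatives. Scaling moved the split: 86 higher and 75 lower for region with TMM factors from miRNAs outside the choroid lists, 40 and 71 in high responders and 34 and 54 in low responders by library totals. Library totals moved the median of all miRNAs in the interaction from 0.09 to -0.24 and in the dorsal raphe line difference from -0.06 to 0.14. The line difference in amygdala gave 0 calls in 24 of 29 alternatives and 19 in DESeq2, and the interaction 0 in 22 of 27 and 22 in DESeq2. Depth limits miR-211-3p, at 0 to 16 counts.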

Other observations

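The arms of miR-448, the miRNA outside the miR-204 and miR-211 rows that was nearest to miR-204-5p in its variation, did not move alike. Of the 117 hairpins, miR-448 had the largest fall in the share of its less abundant arm: the ratio of miR-448-5p to miR-448-3p was 2.98 lower on the log2 scale in amygdala than in dorsal raphe (difference -2.98, exact permutation p = 0.000311, adjusted 0.00909 over 117). Arms of 1 hairpin in the same list of choroid miRNAs thus gave different region differences. miR-764, of the same host gene, had a difference of the opposite sign (miR-764-5p to miR-764-3p, 1.15, exact permutation p = 0.00404, adjusted 0.0473). Both were singled out after their values were seen.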
